A study of Mus musculus with 2 samples.

Results

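The light chain variable (V) genes of the antibody loci were examined in poly(A) RNA of the small intestine. A member was any gene whose GENCODE symbol starts with Igkv (kappa) or Iglv (lambda) and whose biotype is IG_V_gene. GENCODE M21 holds 103 such genes, and 100 of them were measured, 97 kappa and 3 lambda, out of 43346 genes in all. Igkv2-109, Igkv20-101-2 and Igkv8-34 were not analysed here. The tissue came from 1 female C57BL/6J mouse, adult and aged 10 weeks, with no treatment named in the labels. It was sequenced as 2 technical libraries, called the second (technical replicate 2, dated 2015) and the first (technical replicate 1). The sources used here do not say if both libraries share an RNA extraction, and with 1 animal no value describes variation between mice.

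A light chain gene is assembled in each developing B cell by joining 1 V segment to a short joining (J) segment, and the product is spliced to a constant (C) gene. The messenger RNA of a V gene therefore comes from cells of the B lineage that joined that segment, and in the small intestine these are mainly the IgA-secreting plasma cells of the lamina propria together with B cells of the Peyer's patches. Most mouse antibodies carry a kappa chain and a minority a lambda chain. In this text the share of a V gene is its percent of all expected counts of the measured light chain V genes in a library. Levels of different genes are compared as TPM, an abundance that corrects for length and sums to the same total in each library. In bulk tissue, fewer cells using a V gene and less RNA per cell cannot be told apart.

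The 10 V genes with the highest mean share differ at the end of the V segment, which is the part that enters the antigen-binding loop CDR3. The last 41 bases of each follow, from the GENCODE M21 transcripts on mm10 (GRCm38), 5′ to 3′, with the codon of the conserved second cysteine in capitals. The bases after the capitals are the germline start of CDR3, before any trimming or addition at the joint.
Igkv1-117: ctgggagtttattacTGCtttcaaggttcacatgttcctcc
Iglv1: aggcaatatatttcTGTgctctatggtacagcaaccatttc
Igkv16-104: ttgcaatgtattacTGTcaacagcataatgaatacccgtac
Igkv8-24: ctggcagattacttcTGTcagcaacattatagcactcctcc
Igkv1-110: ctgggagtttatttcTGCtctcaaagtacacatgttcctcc
Igkv6-15: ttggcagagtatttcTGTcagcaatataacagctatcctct
Igkv4-91: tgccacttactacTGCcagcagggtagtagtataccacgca
Igkv8-27: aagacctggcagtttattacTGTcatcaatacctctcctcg
Igkv6-17: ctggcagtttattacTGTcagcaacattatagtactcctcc
Igkv8-19: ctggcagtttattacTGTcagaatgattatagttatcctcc
The codon was found by a search pattern, a tyrosine codon, then a tyrosine or phenylalanine codon, then the cysteine codon. Of the 100 members, 96 matched this pattern near the end, as did 94 of the 97 kappa genes. Members without a match were not searched for the cysteine codon after other bases, so they need not lack it. Among those kappa genes the codon was followed by 18 to 29 bases with a median of 23. Igkv8-27 lies at the short end of that range with 18 bases, and Igkv4-91 had 25. The lambda gene Iglv1 had 24.

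The pair Igkv1-117 and Igkv1-110 and the pair Iglv1 and Iglv2 are shown at greater length, because reads have to be told apart between near-identical genes before usage can be counted. The last 240 bases of each follow, from the same source, with the bases that differ within the pair in capitals.
Igkv1-117: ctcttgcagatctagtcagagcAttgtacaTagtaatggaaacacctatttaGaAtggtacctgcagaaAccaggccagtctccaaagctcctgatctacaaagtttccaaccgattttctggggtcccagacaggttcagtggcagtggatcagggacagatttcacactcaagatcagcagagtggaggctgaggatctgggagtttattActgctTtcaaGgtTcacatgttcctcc
Igkv1-110: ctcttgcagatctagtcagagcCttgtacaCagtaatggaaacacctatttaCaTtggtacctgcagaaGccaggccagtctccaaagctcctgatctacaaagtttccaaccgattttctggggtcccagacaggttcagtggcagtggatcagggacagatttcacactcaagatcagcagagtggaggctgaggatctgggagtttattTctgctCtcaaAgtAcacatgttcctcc
Iglv1: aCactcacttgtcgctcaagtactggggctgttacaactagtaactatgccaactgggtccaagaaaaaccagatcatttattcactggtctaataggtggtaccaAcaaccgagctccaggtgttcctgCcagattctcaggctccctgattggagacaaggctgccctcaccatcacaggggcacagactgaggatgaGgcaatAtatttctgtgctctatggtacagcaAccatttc
Iglv2: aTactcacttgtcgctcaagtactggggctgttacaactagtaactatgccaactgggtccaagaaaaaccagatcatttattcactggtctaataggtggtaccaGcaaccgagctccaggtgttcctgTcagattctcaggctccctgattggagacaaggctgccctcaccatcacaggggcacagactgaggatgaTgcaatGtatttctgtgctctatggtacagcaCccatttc
The kappa pair differed at 9 of the 240 bases (96.2% identity) and the lambda pair at 6 (97.5% identity). In the whole set, 48 members had 95% identity or more to another member over 200 bases or more, and they held 69.9% of light chain V counts in the second library against 58.6% in the first. The deposited posterior standard deviation of the count, which measures how uncertain the sharing of reads was, was above 0 for 21 members in the second library against 15 in the first. Its largest values were 5.94 and 1.45 reads. That figure does not cover reads that miss the germline sequence, such as those across a V-J joint or with somatic mutations.

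The second library held 24509862 expected counts and the first 28277875. Genes of the mitochondrial chromosome took 11.4% of TPM in the second library against 49.2% in the first, and the effective lengths imply mean fragments of 178.4 and 190.6 bases. TPM of every nuclear gene is scaled down by that mitochondrial share. All 4 enterocyte markers, Fabp2, Vil1, Sis and Apoa4, were present, with a summed level of 19993 TPM in the second library against 5908 TPM in the first. Apoa4 made up most of that gap, with 12533 TPM in the second library against 22.5 in the first. Fabp2 had 5248 and 3191 TPM and Vil1 had 985 and 96.3 TPM. Sis went the other way, with 1226 TPM in the second library against 2598 in the first. With the library scaling used for the ratios below, Fabp2 too was lower in the second library, while Vil1 and Apoa4 were higher. The log2 ratios, second over first, were −0.55 for Fabp2, −2.29 for Sis, 2.11 for Vil1 and 7.85 for Apoa4. The Benjamini-Hochberg adjusted p-values given here come from an exact binomial test of each gene's 2 counts. They compare these 2 libraries, not conditions, and cover counting error only, as do the 95% exact (Clopper-Pearson) intervals, and without molecular identifiers reads need not be separate molecules.

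Light chain V genes together held 11189 expected counts and 3434 TPM in the second library, and 5347 counts and 1111 TPM in the first. That was 0.343% of all TPM in the second library against 0.111% in the first. With mitochondrial genes left out and TPM rescaled, the sums were 3873 and 2188 TPM. The level was higher in the second library on both scales. The mean of the sums was 2272 ± 1642 TPM (SD, n = 2 technical libraries).

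Kappa V genes exceeded lambda V genes in both libraries. Kappa held 8486 counts in the second library, or 75.8% of light chain V counts (95% interval 75 to 76.6), and 4558 counts in the first, or 85.2% (84.3 to 86.2). Lambda held 2703 counts in the second library, or 24.2% (23.4 to 25), and 789 counts in the first, or 14.8% (13.8 to 15.7). The intervals do not overlap, so the split between the chains differed between libraries beyond counting error. The kappa share averaged 80.5% ± 6.65 (SD, n = 2 technical libraries). Measured in TPM it was 76.1% in the second library against 85.3% in the first.

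The lambda signal was nearly all Iglv1, on chromosome 16 at chr16:19085017-19085500 on the minus strand. Iglv1 had 2627 counts and 796 TPM in the second library against 777 counts and 161 TPM in the first, which is 97.2% and 98.5% of lambda V counts. Iglv2, its close copy, had 55 counts in the second library against 7.03 in the first, and Iglv3 had 21 and 5 counts. A gene was called when its adjusted p was under 0.05 and its difference 2-fold or more, and the background for such calls over the 15194 genes with enough counts was 40.2% for the second library being higher and 27.5% for the first being higher. All 3 lambda V genes were called higher in the second library. Their log2 ratios, second over first, were 1.12 ± 0.06 (counting SE) for Iglv1, 2.25 ± 0.56 for Iglv2 and 1.33 ± 0.69 for Iglv3, with adjusted p of 3.63e-91, 2.09e-06 and 0.0491 by the exact binomial test. Iglv2 and Iglv3 reached the minimum of 20 counts through the second library, where they are high. Their calls are therefore given as a description. Iglv3 lies at the edge of the threshold and lost its call with DESeq2 size factors and with no count minimum. The 95% counting interval of its ratio, 0.994 to 9.19, includes 1.

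Usage was concentrated in a few genes. In each library 3 genes held 50% of the counts, and 24 genes in the second and 19 in the first held 90%. The 10 genes shown above held 74.7% of light chain V counts in the second library against 75% in the first. Above 3 counts, the limit that a count of 0 allows, there were 65 members in the second library against 44 in the first. The 44 were detected in both libraries, 21 were detected in the second alone, and none was detected in the first alone. A count of 3 is 0.0268% of light chain V counts in the second library against 0.0561% in the first, and a gene under that share was not detectable at this depth.

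**Figure D1:**
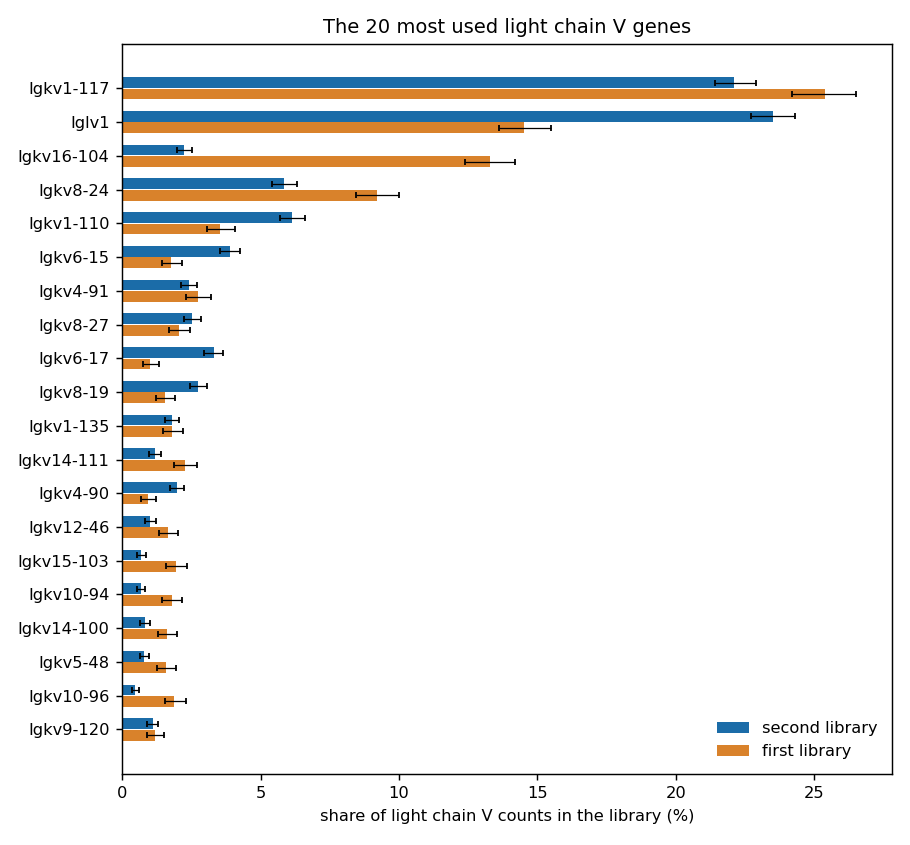
Share of light chain V expected counts (%, horizontal axis) of the 20 genes with the highest mean share, second library (blue, upper bar) and first library (orange, lower bar), with 95% exact binomial intervals as black bars. Igkv1-117 and Iglv1 lead in the second library with 22.1% and 23.5%, while Igkv16-104 stands at 2.24% in the second library against 13.3% in the first.

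Igkv1-117, at chr6:68121046-68121827 on the plus strand, was the most used kappa gene in both libraries. It had 2475 counts and 718 TPM in the second library against 1356 counts and 268 TPM in the first, shares of 22.1% and 25.4%. Its log2 ratio of 0.23 ± 0.05 passed the exact binomial test (adjusted p = 1.70e-06) but is under the 2-fold limit set for a call, which it passed under total counts (1.07). The order of the leading pair was not the same in the libraries. Iglv1 reached 1.11 times the TPM of Igkv1-117 in the second library against 0.600 times in the first. Together the pair held 45.6% of counts in the second library against 39.9% in the first.

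Igkv16-104, at chr6:68425575-68426072 on the plus strand, had rank 10 by counts in the second library against rank 3 in the first. It had 251 counts (77.4 TPM) in the second library against 711 counts (150 TPM) in the first. Its share of 2.24% in the second library stood against 13.3% in the first, the widest gap among the most used kappa genes. The log2 ratio was −2.13 ± 0.11, with adjusted p = 4.90e-105 by the exact binomial test. Its transcript had 43.9% GC, near the low end of the tested members (43.5 to 52.9%). Without Igkv16-104 the kappa share was 75.3% in the second library against 83.0% in the first. What other genes contributed to the difference in the chain split was not tested.

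Igkv8-24 had rank 4 in both libraries, with 654 counts (184 TPM) in the second and 492 counts (94.0 TPM) in the first, and its log2 ratio of −0.22 was no call and turned positive under both scalings by total counts and with the GC trend removed. Igkv1-110, the near copy of Igkv1-117, had 686 counts (199 TPM) in the second library against 189 counts (37.4 TPM) in the first. Its log2 ratio was 1.22 ± 0.12, with adjusted p = 3.38e-28 by the exact binomial test, so the 2 genes of that pair differed in how far they moved. Their GC contents were 48.3% for Igkv1-117 and 49.4% for Igkv1-110. With the trend of the log2 ratio on GC content taken out, the ratios were 0.56 for Igkv1-117 and 1.18 for Igkv1-110.

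The other members of the leading 10 kept to 1.01 to 3.88% of counts. Igkv6-15 had 434 counts in the second library against 95 in the first, and Igkv6-17 had 369 and 54.0, with log2 ratios of 1.55 and 2.13 that were both called. Igkv8-19 was also called higher in the second library (306 and 83 counts, log2 ratio 1.24). Igkv8-27 (283 and 109 counts, log2 ratio 0.74) and Igkv4-91 (270 and 146 counts, log2 ratio 0.25) were not called. Igkv8-27 was called higher in the second library under total counts (1.58), total counts without mitochondrial genes (1.13) and the GC trend removed (1.3), and Igkv4-91 under total counts alone (1.09). Outside the leading 10, the 34 members detected in both libraries had shares of 0.0488 to 2.02% in the second library, median 0.538%, and of 0.0748 to 2.26% in the first, median 0.358%.

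Across the 44 members detected in both libraries, the shares had a Spearman rho of 0.759 and a Pearson r of 0.807. These points come from the same tissue and annotation, so the values only describe how far the usage orders match.

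By family, the number between Igkv and the hyphen, Igkv1 led with 39.9% of kappa V counts in the second library against 36.2% in the first. Igkv1-117 made up 73.0% of the family's counts in the second library against 82.1% in the first. Of the 10 Igkv1 genes, 5 had 0 counts in both libraries. Igkv8 came next with 15.9% in the second library against 15.8% in the first, intervals that overlap. In TPM, Igkv1 held 37.6% of kappa V in the second library against 34.4% in the first, and Igkv8 17.6% and 16.5%.

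Some families had a higher share in the second library. Igkv6 (9 genes) held 10.7% of kappa V counts in the second library against 3.49% in the first, and all 3 of its tested genes, Igkv6-15, Igkv6-17 and Igkv6-23, were called higher there. Igkv6-23 had 71 counts in the second library against 5 in the first. It thus reached the minimum of 20 counts through the second library, and its call is given as a description. Igkv3 (9 genes) held 4.37% and 0.527%. Its most used gene, Igkv3-12, had 226 counts (65.6 TPM) in the second library against 13 counts (2.57 TPM) in the first, a log2 ratio of 3.44 ± 0.40 with adjusted p = 2.79e-33 by the exact binomial test. Igkv3-12 also had the highest GC content of the tested members, 52.9%, and its log2 ratio was 1.84 with the GC trend removed. Igkv2, with 2 genes, held 1.44% and 0.702%, and Igkv2-137 was called higher in the second library (95 and 10 counts, log2 ratio 2.55).

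Igkv4 is the family with the most members, 26 genes that lie 1025 to 1971 kb from the constant gene Igkc. It held 10.7% of kappa V counts in the second library against 4.56% in the first. Igkv4-91 alone made up 29.6% of the family's counts in the second library against 70.2% in the first. Only 2 Igkv4 genes were detected in both libraries, and 12 had 3 counts or fewer in both. Of the 8 Igkv4 genes tested, 7 were called higher in the second library. Of these 7, 6 had 3 counts or fewer in the first library and so entered the test only through the second, where they are high. They include the 5 highest log2 ratios among the 46 members tested.

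Igkv4-55 had 41.3 counts in the second library against 0 in the first, at least 8.81-fold higher against 3 counts in the first library. Igkv4-70 had 104 counts in the second library against 1 in the first, a ratio of 67.1 with a 95% counting interval of 11.8 to 2670. Igkv4-53 had 72 and 2 counts, a ratio of 23.2 (6.20 to 195). With so few counts in the first library, these intervals are wide. They also do not cover how reads were shared between genes. The posterior standard deviation of the count in the first library was 0.5 reads for both Igkv4-55 and Igkv4-70. Igkv4-57 had 82 and 3 counts, a ratio of 17.6 (5.82 to 87.2). Igkv4-80 had 27 and 1 counts, a ratio of 17.4 (2.87 to 713). These 5 were chosen as the highest ratios and reached the minimum of 20 counts through the second library alone, so their calls are given as a description.

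Other families had a lower share in the second library. Igkv14 (4 genes) held 3.31% of kappa V counts in the second library against 5.88% in the first. None of its 4 genes, all of them tested, was called, and the most used, Igkv14-111, had 131 and 121 counts. Igkv10 (3 genes) held 1.5% and 4.32%. Igkv10-96 had 52.5 counts in the second library against 101 in the first, a log2 ratio of −1.58 ± 0.25 that was called (adjusted p = 5.40e-11, exact binomial test). Igkv10-94 had 74.5 and 95.5 counts, a log2 ratio of −0.97 that just missed the 2-fold limit.

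Families with 1 or 2 genes went either way. Igkv15-103 had 78 counts in the second library against 103 in the first (log2 ratio −1.03, called), while Igkv19-93 had 74 and 37 counts (0.36, not called). Igkv13-84 had 31 and 45 counts (−1.16, called) and was the only detected gene of its family of 2. The families Igkv5, Igkv9 and Igkv12 had overlapping intervals in the 2 libraries, at 2.45%, 1.56% and 1.97% of kappa V counts in the second and 2.72%, 1.78% and 2.44% in the first. Their most used genes, Igkv5-48, Igkv9-120 and Igkv12-46, were not called, and neither was Igkv17-127. Less used genes of Igkv5 and Igkv9 were called. Igkv5-43 was higher in the second library (89.7 and 21.3 counts, log2 ratio 1.44) and Igkv9-124 in the first (log2 ratio −1.51). Igkv7, Igkv11 and Igkv18, with 1 gene each, had at most 7 counts in the second library against at most 1 in the first.

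**Figure D2:**
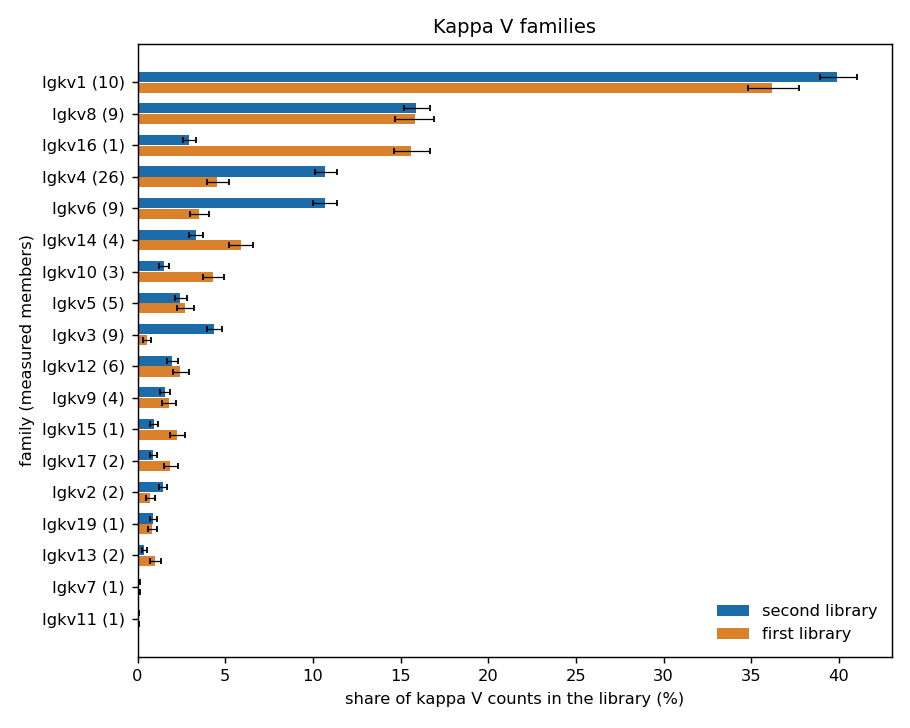
Share of kappa V expected counts (%, horizontal axis) by family, with the number of measured genes in brackets, for the second library (blue, upper bar) and the first (orange, lower bar), with 95% exact binomial intervals. Igkv1 and Igkv8 lead in the second library, Igkv4 and Igkv6 are each at 10.7% there against 4.56% and 3.49% in the first, and Igkv16, a single gene, stands at 2.96% against 15.6%.

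The kappa V genes span 3170 kb upstream of Igkc on chromosome 6, and usage was uneven along that stretch. The nearest 32 genes (22 to 783 kb from Igkc) held 31.1% of kappa V counts in the second library against 19.8% in the first. The middle 32 genes (825 to 1815 kb) held 9.70% and 6.38%. The remaining, most distant genes held 59.2% and 73.8%, and led in both libraries. Without Igkv1-117 they held 42.4% of the rest in the second library, under the 43.9% of the nearest genes, and 62.7% in the first, over the 28.2% of the nearest genes. The middle stretch was the least used in both libraries with and without Igkv1-117. It contains most of the Igkv4 genes. Across the 97 kappa genes, mean share and distance to Igkc had a Spearman rho of 0.0650.

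Kappa V genes on the same strand as Igkc join a J segment by deletion, and those on the opposite strand by inversion. The 36 genes on the same strand held 59.8% of kappa V counts in the second library against 66.5% in the first, and the 61 on the opposite strand 40.2% and 33.5%. Without Igkv1-117, which lies on the same strand, the 35 left held 43.3% of the rest in the second library against 52.3% in the first. Both orientations were thus in use in both libraries. There were 19 genes on the same strand and 22 on the opposite strand above 3 counts in both libraries.

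**Figure D3:**
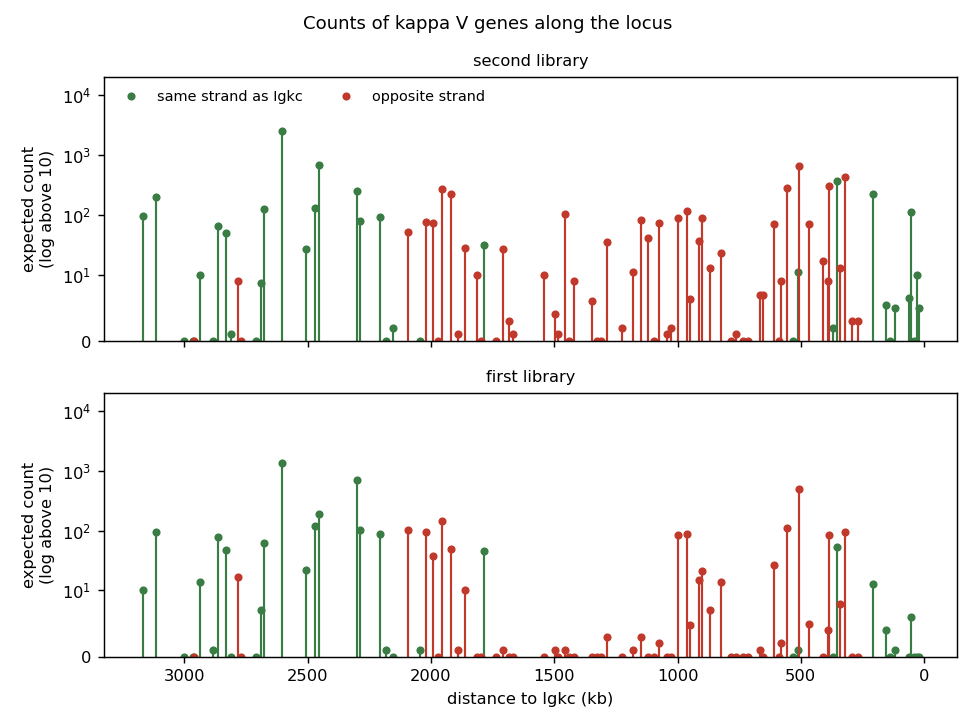
Expected counts (vertical axis, linear to 10 and logarithmic above) of the 97 kappa V genes by their distance to Igkc in kb, in the second library (upper panel) and the first (lower panel), coloured by strand relative to Igkc. Igkv1-117 is the tallest point in both panels with 2475 and 1356 counts, and between 1025 and 1709 kb the first library has no gene above 3 counts.

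V genes and constant genes did not keep the same proportion. Igkc, the only kappa constant gene, had 13205 counts and 4733 TPM in the second library against 475 counts and 118 TPM in the first, a log2 ratio of 4.16 ± 0.07. The summed TPM of kappa V genes was thus 0.552 times the TPM of Igkc in the second library against 8.07 times in the first. Igkc had 49.2% GC, within the range of the tested V genes, and its log2 ratio was 4.17 with the GC trend removed. For lambda, V TPM over Iglc2 TPM was 20.2 in the second library against 27.6 in the first. Iglc2, with 327 and 73 counts, is the constant gene that Iglv2 usually joins, while Iglv1 usually joins Iglc1 or Iglc3, which were not analysed here. The joining segments Igkj1 to Igkj5 were at 0 counts in both libraries.

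Genes of the B lineage and of T cells were present beside the V genes. Of 12 plasma cell markers, all tested, 5 were called higher in the second library, 3 were called higher in the first and 4 neither, with a summed level of 725 TPM in the second library against 548 TPM in the first. The median log2 ratio was −0.08. Jchain, which links IgA into dimers, had 10899 counts (477 TPM) in the second library against 15758 counts (443 TPM) in the first and was called higher in the first, with 38.8% GC. Its log2 ratio was −1.16, and 1.05 with the GC trend removed, so its direction turned. Of 12 B cell markers, 8 were called higher in the second library against 4 in the first, with sums of 41.8 and 13.6 TPM. Calls among germinal centre genes were few and mixed. Of the 6 listed, 4 were tested, with 1 called higher in the second library, 2 called higher in the first and 1 neither. The tested germinal centre genes had a median log2 ratio of −0.72. Summed TPM of that list was still 7.38 in the second library against 3.92 in the first. Of 7 heavy chain constant genes tested, 6 were called higher in the second library and none was called in the other direction. Igha, the constant gene of IgA, had 51352 counts (2951 TPM) in the second library against 168 counts (5.59 TPM) in the first, with 53.9% GC. The log2 ratio of Igha was 7.62, and 5.54 with the GC trend removed. Pigr, listed for epithelial IgA transport, had 1981 TPM in the second library against 974 TPM in the first. Its log2 ratio of −0.26 was no call. The recombination and surrogate light chain list was near 0, at 2.57 and 0.140 TPM in all, and Rag1, Dntt and Igll1 had 0 counts in both libraries. Of 8 T cell markers, all tested, 5 were called higher in the second library, with no call the other way, a median log2 ratio of 1.34 and sums of 50.3 and 9.68 TPM. Whether the marker levels had a part in the V gene ratios was not tested.

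In the exact binomial test, 46 members with 20 or more counts over both libraries were compared, out of 15194 genes. Called higher in the second library were 19 members, or 41.3%, where 40.2% of all genes tested were. Of these 19, 6 had 3 counts or fewer in the first library. Some others, Iglv2, Iglv3 and Igkv6-23 among them, also reached the minimum of 20 counts through the second library. Called higher in the first were 5 members, Igkv16-104, Igkv15-103, Igkv10-96, Igkv13-84 and Igkv9-124, or 10.9%, where 27.5% of all genes tested were. The share called higher in the second library was thus near the background, and the share called higher in the first was below it. The members' median log2 ratio was 0.54, against 0.26 over all genes tested. Scaling by total counts shifts every log2 ratio up by 0.84, and then 28 members were called higher in the second library, with 1 called the other way and backgrounds of 51.4% and 10.0%. Scaling by total counts without mitochondrial genes shifts them up by 0.39, and 23 and 2 members were called, against 45.1% and 19.3%. Igkv16-104 was called higher in the first library under both of these scalings, Igkv10-96 under the second of them alone, and the other 3 under neither. Igkv14-130, with 10 and 14 counts, had a log2 ratio of −1.10 ± 0.58 and was not called.

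Ratios followed GC content among the members and among all genes. Over the 46 members tested the log2 ratio and GC content had a Pearson r of 0.752 and a Spearman rho of 0.782, and over 15089 genes outside the mitochondrial chromosome 0.789 and 0.843. These are correlations across genes that share both libraries, and genes are not independent replicates. The 23 members below the median GC of 47.7% had a median log2 ratio of −0.34, with 4 called higher in the second library against 5 in the first. The 23 at or above it had a median of 2.13, with 15 called higher in the second library against none in the first. With length the members' log2 ratios had a Pearson r of 0.0332.

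When a lowess trend on GC content was subtracted from all log2 ratios, 25 of the 46 members were called higher in the second library, with 0 called the other way, where the background was 18.6% of all genes each way. The members' median log2 ratio was then 1.17. No member of the 5 called higher in the first library stayed called, and Igkv16-104 had a log2 ratio of −0.76. In the other direction, the 5 Igkv4 genes with the highest ratios had fitted log2 ratios of 3.77 to 5.64, and Igkv4-91 had 0.56. What GC content and the mitochondrial share contributed to the ratios was not tested further. Iglv1 stood at 1.5 and Igkv1-117 at 0.56.

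**Figure D4:**
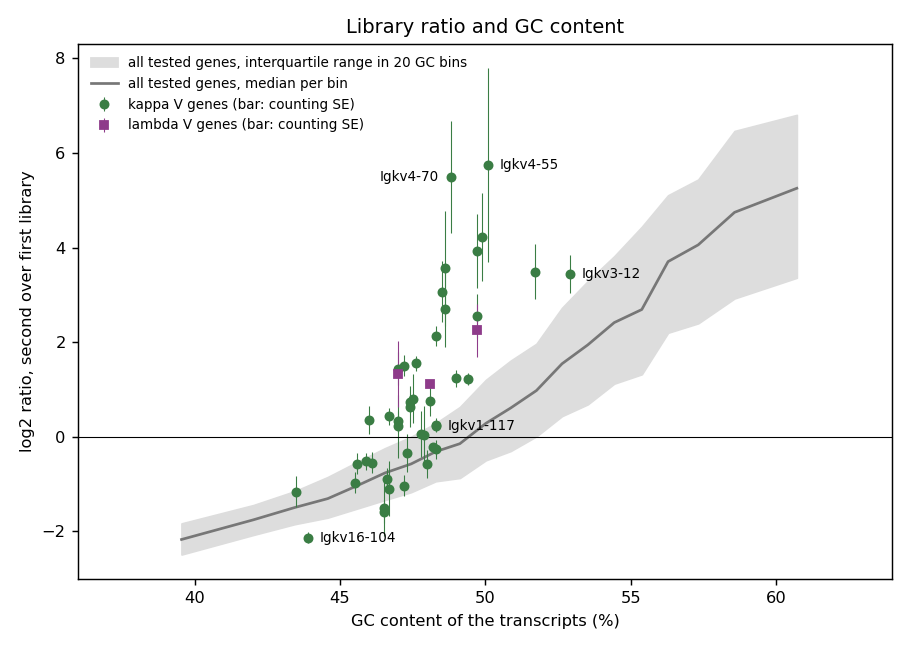
Log2 ratio, second over first library (vertical axis), against GC content of the transcripts (%, horizontal axis) for the 46 tested light chain V genes (green circles kappa, purple squares lambda, bars counting SE), over the median (line) and interquartile range (band) of all tested genes in 20 GC bins. The members run between Igkv16-104 at −2.13 and the Igkv4 genes above 3, and the point of Igkv4-55 rests on 0 counts in the first library.

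Heavy chain V genes, the partners of the light chain in the antibody, were measured in the same libraries. Of 113 measured heavy chain V genes, 53 were tested, 31 were called higher in the second library against 1 in the first, and their median log2 ratio was 1.17 with a median GC of 50.1%. The difference from the light chain V genes was not tested. Light over heavy V counts came to 1.47 in the second library against 1.97 in the first. Heavy chain usage was also concentrated, with 62.0% of counts in the 10 most used genes in the second library against 66.6% in the first; the figures were 74.7% and 76.8% for the light chain when its 10 are taken in each library alone.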

How the data were processed

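Poly(A) RNA-seq of 2 technical libraries from 1 mouse was used, in 1 group. Per the file headers, the deposited gene tables have the RSEM format, and per the deposited notes they use assembly mm10 and annotation M4. No source used here names the aligner, the read filters or the version of the quantifier. The authors deposited expected counts as estimates in which reads matching several genes were shared. TPM was deposited by the authors as abundance per effective length. The deposited posterior standard deviation of a count was used as a score of that sharing. There were 26345 other entries (such as tRNA), all at 0 counts, and these were left out.

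Symbols, positions and biotypes came from GENCODE M21, matched by identifier, which found 42462 of 43346 genes. The members and the lists were chosen with earlier results of these data known. A quasi-likelihood fit in edgeR needs replicates and could not be fitted with 1 library a side. Expected counts were rounded, and a two-sided exact binomial test was run for genes whose counts summed to 20 or more. The expected split used TMM scaling in edgeR 4.0.16, and p-values had Benjamini-Hochberg adjustment over all genes tested. A call needed an adjusted p under 0.05 and a 2-fold difference. Log2 ratios use 0.5 prior counts. In simulated counts, 192 of 195 changed genes among 15232 tested were called in the right direction, and 0 unchanged genes were. The simulated counts varied by counting error alone, as the test assumes, and had no GC trend. They therefore do not show how often unchanged genes would be called in the real libraries. Alternatives were DESeq2 1.42.0 size factors, total counts with and without mitochondrial genes, other count limits, posterior mean counts, TPM, counts per length, a lowess GC trend (span 0.3) and members of 95% BLAST 2.17.0 identity left out. GC content is that of the M21 transcripts. Named were the 10 most used members, the most used of each family with 20 or more counts, all lambda genes, the 5 highest and 5 lowest log2 ratios among members tested and the 3 most unequal in TPM and count share among members detected in both libraries. Igkv6-23 was named after its values were seen.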

Additional observations from a re-analysis of the deposited data

How the results depend on the processing

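The number of members called higher in the second library (19) stayed within 1.5 times of its value under all alternatives tried, with 28 for total counts. Its place against the background did change. The share of members called was 41.3% against 40.2% of all genes with TMM, and 54.3% against 18.6% with the GC trend removed. The number called higher in the first library (5) was 1 with total counts, 2 with total counts without mitochondrial genes and 0 with the GC trend removed, and stayed within 1.5 times under the other alternatives. The log2 ratio of Igkv8-24 was 0.62 with total counts, 0.17 without mitochondrial genes and 0.11 with the GC trend removed, all reversed from −0.22, and that of Igkv13-84 was 0.29 with the GC trend removed. The cause was not tested. With members of 95% identity or more left out, which removes Iglv1 and Igkv1-117 by construction, the kappa share was 99.6%, the 10 most used held 63.2% and Igkv1 held 0.667%. The 10 most used held 74.4% in TPM and 75.7% among members with 20 or more counts. With either library left out, the kappa share was 75.8 to 85.2%, the 10 most used held 74.7 to 75%, Igkv1 held 36.2 to 39.9%, 44 to 65 members were detected and the summed TPM was 1111 to 3434. No paired analysis was possible because there is 1 group of libraries. Both libraries come from 1 animal, so depth limits only which low genes can be seen and says nothing about variation between mice.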

Other observations

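Igkv8-27 has an annotated transcript of 300 bases and Igkv5-39 and Igkv9-124 of 287, and among the 44 members detected in both libraries these 3 had the most unequal shares of TPM and counts. The 16 members under 310 bases held 6.43% of light chain V counts and 8.78% of TPM in the second library, and 4.28% and 6.07% in the first. Igkv5-39 had 23 counts in the second library against 14 in the first, and Igkv9-124 had 9 and 17.

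The 21 members detected in the second library alone had 4 to 104 counts there, with a median of 10, and 0 to 3 counts in the first, with a median of 1. The 35 members at 3 counts or fewer in both libraries summed to 23 counts in the second library against 4 in the first, and 19 of them had 0 counts in both.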
